A study of Mus musculus with 6 samples.

Results

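Ethanolamine (Etn)-deprived mouse embryonic fibroblasts carrying a control hairpin were compared with fibroblasts carrying the same hairpin in complete medium, on day 2 of reprogramming. The genes compared were those with a mean of at least 1 RPKM (reads per kilobase of transcript, scaled to library size) over the 6 libraries of the series, short RNA genes left out by name, which gave 11814 genes of the 18303 in the table. All libraries came from fibroblasts of the strain CBA/CaJ X C57BL/6J, kept in the defined reprogramming medium iCD1. The control group, shLuc, held 2 libraries with a short hairpin RNA against luciferase, a gene mouse cells lack, and the Etn-deprived group held 1 library with shLuc in iCD1 lacking Etn. Hairpins against both ethanolamine kinases (shEtnk1/2), against Pcyt2 (shPcyt2) and against Pebp1 (shPebp1) gave 1 library each, all with Etn. The labels do not say how the reprogramming factors were delivered. They also leave unsaid whether separate cultures gave the shLuc replicates, so the p-values below measure a spread that may be technical. The Etn-deprived library had no replicate, so none of its differences has a replicate check of its own.

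Etn is the starting material of the CDP-ethanolamine pathway: ethanolamine kinase phosphorylates it, Pcyt2 activates the product with CTP, and a phosphotransferase joins it to diacylglycerol to give phosphatidylethanolamine. Phosphatidylethanolamine is a major membrane lipid, abundant in the inner mitochondrial membrane, and can also be made in mitochondria from phosphatidylserine. Early in reprogramming, fibroblasts lose mesenchymal features and begin to gain epithelial ones, and the study asked how the pathway acts on that transition.

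The libraries held between 18467583 and 20020465 reads in genes, and Etn-deprived had the fewest. The library labelled shLuc replicate 2 went against its label in 1 gene. Pebp1, a phosphatidylethanolamine-binding protein, stood at 250 RPKM in shLuc replicate 1, 100.7 in the library labelled shLuc replicate 2, 211 in Etn-deprived and 99.6 in shPebp1. That control library was therefore as low in Pebp1 as the library with the Pebp1 hairpin, and differences are given against each control library. Fibroblast genes summed to between 6360 and 8060 RPKM per library, and to 7110 in Etn-deprived. Lists of markers of other cell types summed to far less. The macrophage list summed to 64.3 RPKM in Etn-deprived and to 61.9 and 63.7 in the shLuc libraries. The endothelial list summed to 43.9 against 44.9 and 41.3, and the neural and glial list to 78.7 against 81.1 and 86.5. In bulk RNA, fewer cells of a type and less RNA per cell cannot be told apart. Ptprc of the macrophage list (0.18 RPKM in Etn-deprived), Pecam1 of the endothelial list (0.0651) and Krt5 of a keratinocyte list (0.0246) were near 0. Other members were not. Tek and Eng of the endothelial list stood at 23.3 and 18.8 RPKM, and Krt10 and Krt14 of the keratinocyte list at 1.8 and 1.13.

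The limma test, with Benjamini-Hochberg adjustment over all genes tested and a threshold of 0.05, called 176 genes higher (1.49%) and 668 lower (5.65%) in Etn-deprived. The fit assumes that the lone library varies as the shLuc pair did, on the scale of log2(RPKM + 1), which understates the change of genes with low values. The fit trends the spread on RPKM. With the spread trended instead on the number of reads per gene, a choice made after seeing the data, 430 genes (3.64%) were called higher and 699 (5.92%) lower. Of the genes called in the first fit, 164 higher and 551 lower were called again, and the 129 that were not had a median of 241 reads against 1092 for those that were. On the reads themselves (limma-voom), 295 were called higher and 410 lower, so that 58.2% of calls were lower against 79.1% in the first fit. By size alone, 29 genes (0.245%) lay at least 0.5 log2 units above both shLuc libraries and 137 (1.16%) at least as far below both. A single pair of libraries is a looser measure. Against shLuc replicate 1 alone, Etn-deprived lay that far above in 116 genes and below in 283. Against the library labelled shLuc replicate 2 alone, the counts were 118 and 260. By the same looser measure, the shLuc libraries themselves differed in 68 genes one way and 73 the other. With shLuc replicate 1 alone as control, 15 genes (0.127%) were called higher and 33 (0.279%) lower, and with the library labelled shLuc replicate 2 alone, 11 (0.0931%) and 23 (0.195%). In those last fits the spread comes from shEtnk1/2 and shPcyt2 taken as a pair, which are different treatments.

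Genes with short transcripts and genes rich in G and C were lower in the Etn-deprived library as a class. The median difference from shLuc was −0.258 log2 units in the 326 genes with transcripts up to 700 nt, of which 45.1% were called lower, and 0.042 in the 2288 genes with transcripts over 5000 nt, of which 0.481% were. It was 0.171 in genes with a GC content up to 40% and −0.151 in those over 60%. Across genes, which are not independent replicates, the difference from shLuc replicate 1 had a Spearman rho of −0.51 with GC content (11745 genes) and 0.26 with length (11814 genes), and the difference from replicate 2 had −0.45 and 0.24. The shLuc libraries differed from each other by −0.032 in the shortest class. The shEtnk1/2 library was also low there (−0.168), and shPcyt2 was not (0.046). What in the RNA or the library gave this trend was not tested, and with 1 library it cannot be told apart from the lack of Etn.

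**Figure D1:**
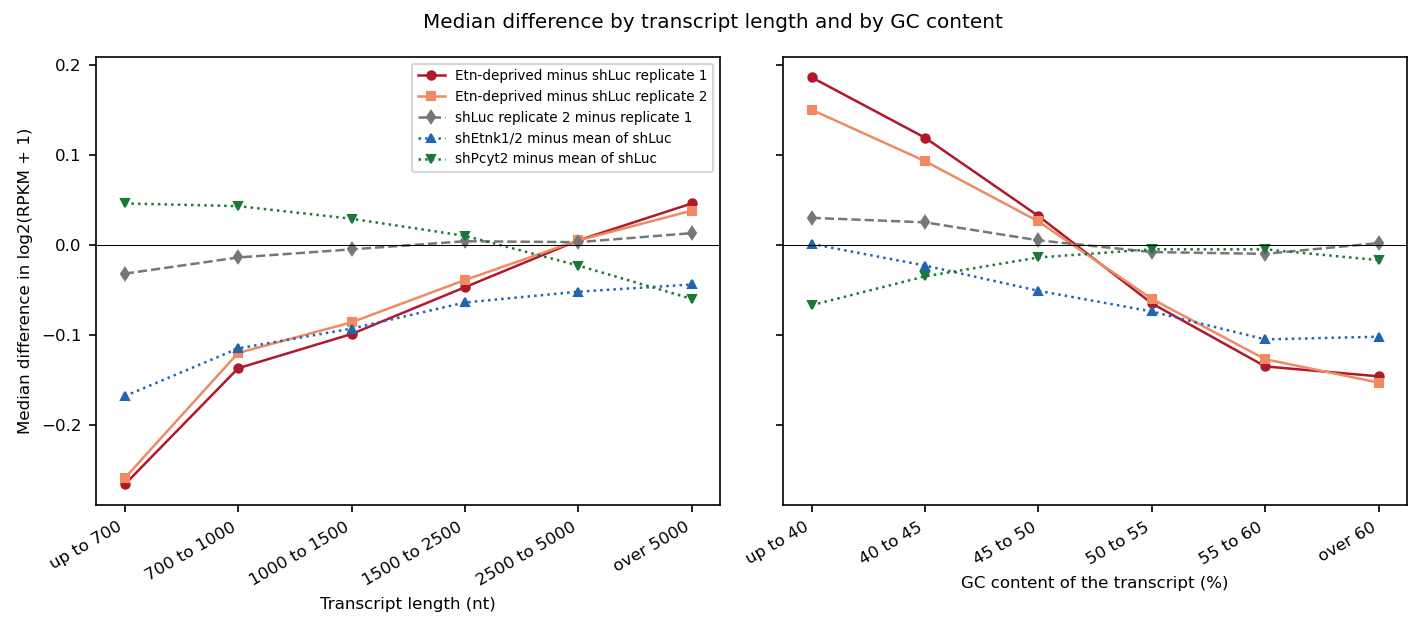
Median difference in log2(RPKM + 1) by class of transcript length in nt (left) and of GC content in % (right). Points are medians over the genes of a class. Both lines for Etn-deprived run from about −0.26 in the shortest transcripts to about 0.04 in the longest, and the line between the shLuc libraries stays near 0.

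The smooth trend of each library in length was therefore removed, and in a further fit the trends in length and GC content together. With the length trend removed, limma called 15 genes higher (0.127%) and 63 lower (0.533%), and with both removed, 8 higher (0.0681%) and 40 lower (0.341%). Called the same way in all 3 fits were 41 genes, 6 higher (0.0508%) and 35 lower (0.296%). In all 35 lower genes Etn-deprived was below every other library of the series, and in 5 of the 6 higher genes above every other. Over all genes tested it was below the other 5 in 2561 and above them in 2714, and the 41 genes were chosen for lying away from shLuc, which partly fixes this. The transcripts of the 35 lower genes ran from 283 to 3066 nt, and 23 of them were no longer than 1000 nt. With the spread trended on reads, more genes were called: 30 higher and 91 lower with both trends removed. With that spread, 21 were called higher and 65 lower in all 3 fits. Calls with trends removed given below use the spread trended on RPKM unless stated. Of the 41, 33 were also called in all 3 fits with the spread trended on reads. The other 8, Hist1h3d, DQ267100, Rpp21, Atp5k, Dcdc2b, Tmem258, Mrps21 and 2410015M20Rik, were not. Without the library labelled shLuc replicate 2, 11 of the 35 and 3 of the 6 were still called, and without replicate 1, 10 and 2.

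**Figure D2:**
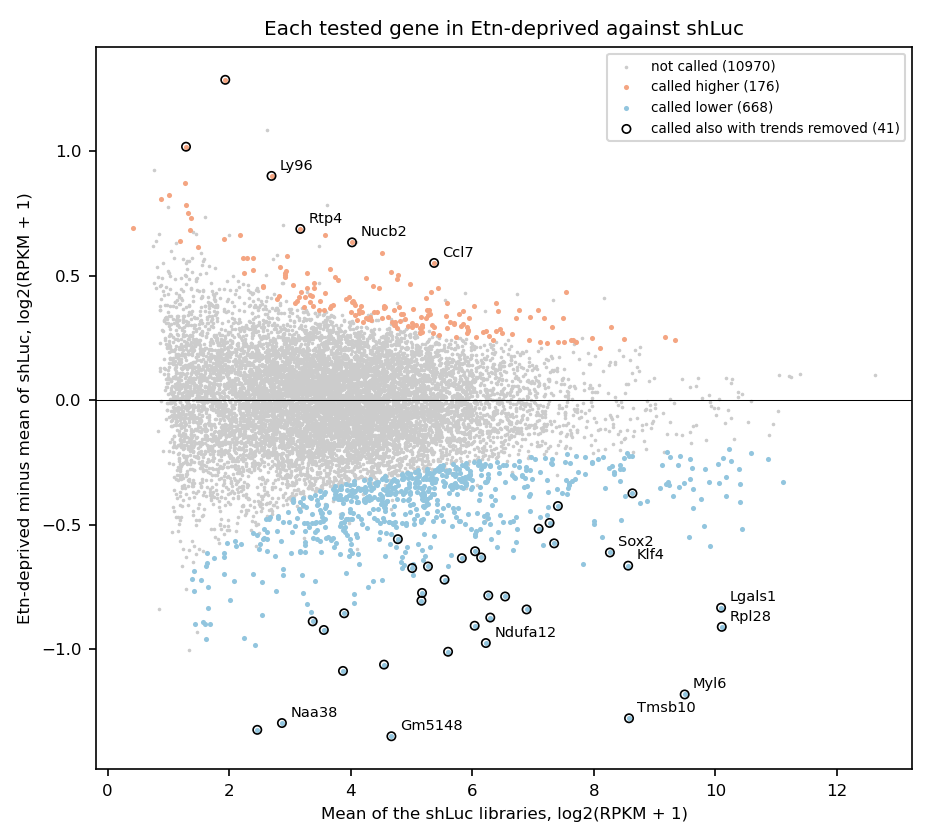
Difference between Etn-deprived and the mean of the shLuc libraries against that mean, both in log2(RPKM + 1), 1 point per tested gene. Circles mark the 41 genes called with and without the trends. The lower ones reach −1.35 (Gm5148) and include Myl6 and Lgals1 at high levels, and the higher ones named in the plot lie between 0.55 and 0.90.

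Several genes of the actin cytoskeleton fell. Tmsb10, a thymosin that binds actin monomers, stood at 356 and 410 RPKM in the shLuc libraries and 157 in Etn-deprived, against 315, 446 and 334 in shEtnk1/2, shPcyt2 and shPebp1. Etn-deprived was the lowest of the 6, at 41.0% of the shLuc mean, a log2 difference of −1.28 ± 0.08 (SE; limma adjusted p = 2.95e-07), and −1.06 with both trends removed. Tmsb4x, the related and more abundant thymosin beta 4, stood at 1354 and 1429 RPKM in shLuc and 1416 in Etn-deprived, so the values overlapped (log2 difference 0.03 ± 0.06). The coding sequences are shown because these related genes took different courses, and capitals mark the bases at which they differ.
Tmsb4x: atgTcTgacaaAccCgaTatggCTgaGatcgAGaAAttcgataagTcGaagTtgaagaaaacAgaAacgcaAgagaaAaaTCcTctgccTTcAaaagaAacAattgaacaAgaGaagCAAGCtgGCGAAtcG
Tmsb10: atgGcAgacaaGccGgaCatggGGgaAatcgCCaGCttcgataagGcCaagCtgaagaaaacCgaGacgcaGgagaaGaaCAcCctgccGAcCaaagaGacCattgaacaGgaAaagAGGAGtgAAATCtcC
Both run 5′ to 3′ over 132 nt without the stop codon, with 92 bases (69.7%) in common. They come from GENCODE vM21 on GRCm38, the same assembly as mm10: Tmsb4x from chrX:167207504-167208036 and Tmsb10 from chr6:72957621-72958012, both on the minus strand, and the spans include introns.

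Myl6, a myosin light chain of nonmuscle and smooth muscle cells, stood at 737 and 706 RPKM in shLuc and 317 in Etn-deprived. The other libraries held 645 (shEtnk1/2), 811 (shPcyt2) and 459 (shPebp1), so shPebp1 was also below shLuc. The log2 difference was −1.18 ± 0.06 (limma adjusted p = 1.39e-12). Lgals1, which encodes the sugar-binding protein galectin-1, fell from 1095 and 1090 to 613 RPKM (−0.83 ± 0.06, limma adjusted p = 3.77e-10). Myl12a, a regulatory myosin light chain, fell from 155 and 152 to 109 RPKM (−0.49 ± 0.07, limma adjusted p = 3.22e-05). These 4 were the members of the contractile and actin-binding list that were called in all 3 fits. Of its 39 tested members 8 were called lower and 1 higher, with a median of −0.04 against −0.01 over all genes tested. Over all genes tested, 5.65% were called lower and 1.49% higher.

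The transcription factors that drive reprogramming were lower. Klf4 stood at 394 and 363 RPKM in shLuc and 238 in Etn-deprived, a log2 difference of −0.67 ± 0.07 (limma adjusted p = 6.87e-07). Sox2 stood at 311 and 303 RPKM in shLuc and 200 in Etn-deprived (−0.61 ± 0.07, limma adjusted p = 6.87e-07). Both were lowest in Etn-deprived, with shEtnk1/2 next at 262 for Klf4 and 209 for Sox2, and neither differed from shEtnk1/2 by the test (−0.14, limma adjusted p = 0.408, and −0.06, limma adjusted p = 0.765). Pou5f1, which encodes Oct4, stood at 620 and 569 RPKM in shLuc and 472 in Etn-deprived (−0.33 ± 0.07, limma adjusted p = 0.0025), but was not called with the length trend removed, and shEtnk1/2 was lower still at 412. Myc was at 8.62 and 7.99 RPKM in shLuc and 7.31 in Etn-deprived, and was not called. Fibroblasts do not express Sox2 or Pou5f1 at such levels by themselves, and the table does not separate reads of introduced copies from reads of the endogenous genes.

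Nuclear genes of the respiratory chain were lower in number and by a modest size. Of 36 tested subunits of complex I, which passes electrons from NADH to ubiquinone, 20 were called lower and none higher, with a median of −0.30. With the length trend removed the median was −0.15 and 4 were called lower. Ndufa12 stood at 73.0 and 74.5 RPKM in shLuc and 37.0 in Etn-deprived, 50.2% of the shLuc mean (−0.98 ± 0.08, limma adjusted p = 3.41e-09). Ndufa2 fell from 49.3 and 45.9 to 23.1 RPKM (−1.01 ± 0.08, limma adjusted p = 9.03e-09) and Ndufc2 from 80.2 and 75.1 to 41.9 RPKM. These 3 were called in all 3 fits. Of 44 tested subunits of complexes II to V, 22 were called lower and none higher (median −0.23), and 4 with the length trend removed (median −0.07). Uqcrq of complex III fell from 75.5 and 76.2 to 43.6 RPKM, Cox6b1 of complex IV from 163 and 161 to 108, and Atp5k of the ATP synthase from 35.2 and 35.0 to 20.1. The median transcript lengths of the lists were 715 and 684 nt. Of all genes tested, 45.1% of those up to 700 nt and 20.6% of those from 700 to 1000 nt were called lower.

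Of 80 tested cytosolic ribosomal protein genes 38 were called lower and none higher, with a median of −0.20. Their median transcript length was 712 nt, next to the class up to 700 nt in which 45.1% of all genes were called lower. With the length trend removed 7 were called lower and the median was −0.05. Rpl28, a protein of the large subunit, stood at 1104 and 1099 RPKM in shLuc and 585 in Etn-deprived (−0.91 ± 0.06, limma adjusted p = 1.06e-10), and Rpl15 at 404 and 390 against 306. Rpl39l, a retained copy of Rpl39, stood at 4.13 and 4.92 RPKM in shLuc and 1.2 in Etn-deprived (95% Poisson interval 0.713 to 1.90, from 18 reads, counting error only; log2 difference −1.32 ± 0.16). Rpl39 itself stood at 299 and 310 RPKM in shLuc and 336 in Etn-deprived, the highest of the 6 libraries, and was not called. The coding sequences of the pair are shown because reads could be shared between them, with capitals at the bases that differ.
Rpl39: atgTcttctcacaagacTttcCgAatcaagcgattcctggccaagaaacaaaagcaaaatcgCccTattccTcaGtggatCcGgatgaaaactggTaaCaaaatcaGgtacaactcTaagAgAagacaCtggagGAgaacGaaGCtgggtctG
Rpl39l: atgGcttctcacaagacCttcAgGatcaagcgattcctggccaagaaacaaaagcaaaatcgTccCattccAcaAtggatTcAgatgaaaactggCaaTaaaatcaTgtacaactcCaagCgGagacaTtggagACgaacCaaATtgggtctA
Over 153 nt, 130 bases (85.0%) are shared. The positions are chrX:37082704-37085127 on the minus strand, including introns, and chr16:10174310-10174462 on the plus strand. Gm5148 (24.5 and 24.4 RPKM in shLuc, 8.98 in Etn-deprived, 44.8 in shPcyt2) and Rpl14-ps1 (22.9 and 21.9 in shLuc, 10.2 in Etn-deprived) also fell, and since ribosomal protein genes have many copies in the genome, the values of all 3 copies are uncertain. Of 77 tested mitochondrial ribosomal protein genes, 23 were called lower and none higher (median −0.14), and 1, Mrps21, with the length trend removed. The median transcript length of this list was 1061 nt. Of all genes from 1000 to 1500 nt, 14.2% were called lower, and their median was −0.093.

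**Figure D3:**
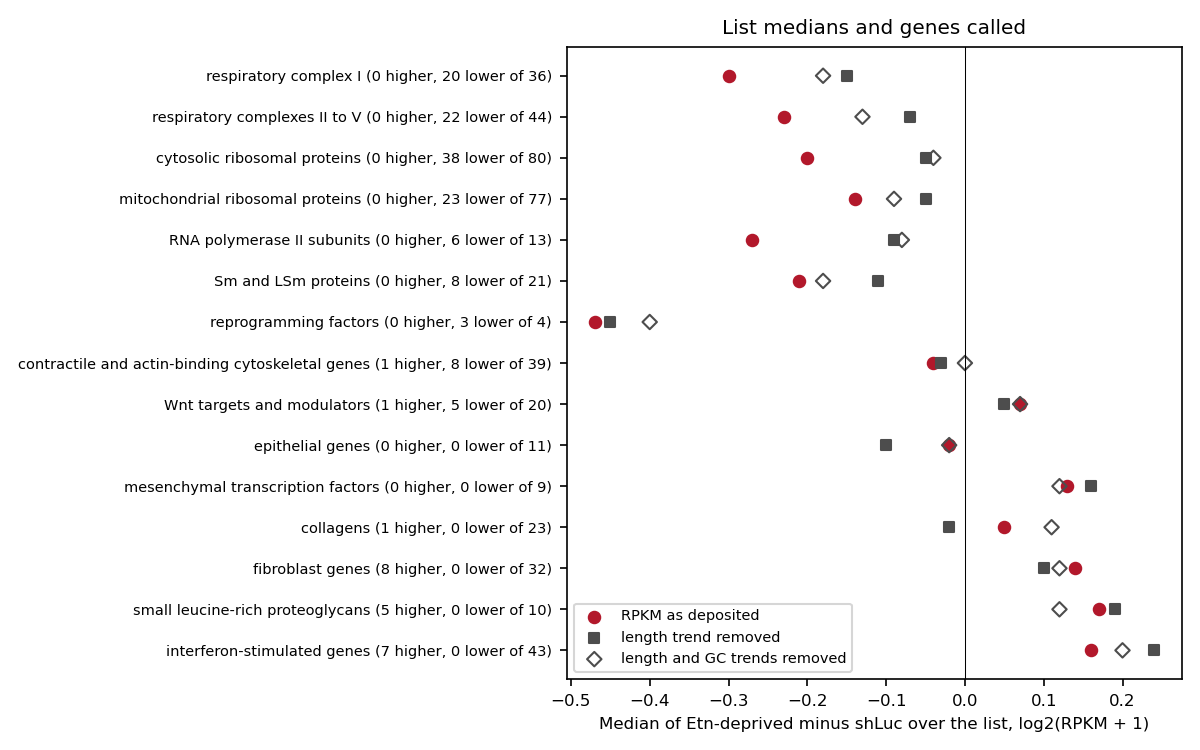
Median difference of Etn-deprived from shLuc over each gene list, in log2(RPKM + 1), from the deposited values and with trends removed. Counts in the labels are genes called by limma. The medians of the respiratory and ribosomal lists move toward 0 when the length trend is removed, while that of the reprogramming factors moves from −0.47 to −0.45.

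Some list medians depended on the control library. Against shLuc replicate 1 and the library labelled replicate 2, the proteoglycan list stood at 0.11 and 0.26 and the Wnt list at 0 and 0.13. The 4 early pluripotency genes stood at 0.05 and −0.28. Other lists differed less: complex I stood at −0.30 against shLuc replicate 1 and −0.31 against the library labelled replicate 2. Complexes II to V stood at −0.22 and −0.24, and the cytosolic ribosomal proteins at −0.22 and −0.16. Without that library, limma called 1 gene of complex I, 2 of complexes II to V, 1 cytosolic and no mitochondrial ribosomal protein gene, and no reprogramming factor, in the fit whose spread comes from the 2 knockdowns. In the same fit 1 of the interferon-stimulated genes and 1 of the fibroblast genes were called higher.

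Genes of transcription and splicing were among those that fell in all 3 fits. Polr2l, a small subunit shared by the nuclear RNA polymerases, stood at 11.5 and 10.1 RPKM in shLuc and 5.21 in Etn-deprived (−0.93 ± 0.12, limma adjusted p = 1.04e-05), and Polr2j, a subunit of RNA polymerase II, at 35.1 and 34.6 against 19.5. Of 13 tested RNA polymerase II subunits 6 were called lower and none higher (median −0.27, median transcript 874 nt), and 2 with the length trend removed (median −0.09). Snrpd2, an Sm core protein of the spliceosome, stood at 118 and 118 RPKM in shLuc and 65.4 in Etn-deprived (−0.84 ± 0.07, limma adjusted p = 1.05e-08). Snrnp70, of the U1 particle, fell from 135 and 136 to 94.4 RPKM. Of 21 tested Sm and LSm genes 8 were called lower and none higher (median −0.21, median transcript 920 nt), and 2 with the length trend removed (median −0.11). For comparison with both lists, 5.65% of all genes tested were called lower. Of all genes from 700 to 1000 nt 20.6% were, and their median was −0.128. Naa38, a subunit of an N-terminal acetyltransferase, fell from 6.32 and 6.28 to 1.97 RPKM (interval 1.19 to 3.08).

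Few genes rose beyond the trends, 6 with the spread trended on RPKM and 21 with it trended on reads. The 6 follow. Ccl7, a chemokine that attracts monocytes, stood at 42.8 and 38.2 RPKM in shLuc and 59.7 in Etn-deprived, the highest of the 6 (0.55 ± 0.08, limma adjusted p = 0.000165). Ly96, which encodes MD-2, the partner of Toll-like receptor 4, stood at 5.02 and 5.98 RPKM in shLuc and 11.1 in Etn-deprived (0.90 ± 0.13, limma adjusted p = 7.73e-05). Rtp4, an interferon-stimulated gene, stood at 7.57 and 8.46 RPKM in shLuc, 13.5 in Etn-deprived and 12.3 in both shEtnk1/2 and shPebp1 (0.68 ± 0.11, limma adjusted p = 0.000268). Nucb2, a calcium-binding protein, stood at 15.7 and 14.8 RPKM in shLuc and 24.2 in Etn-deprived, with shEtnk1/2 higher at 25.0. Hist1h3d rested on 37 reads in Etn-deprived and DQ267100 on 11.

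**Figure D4:**
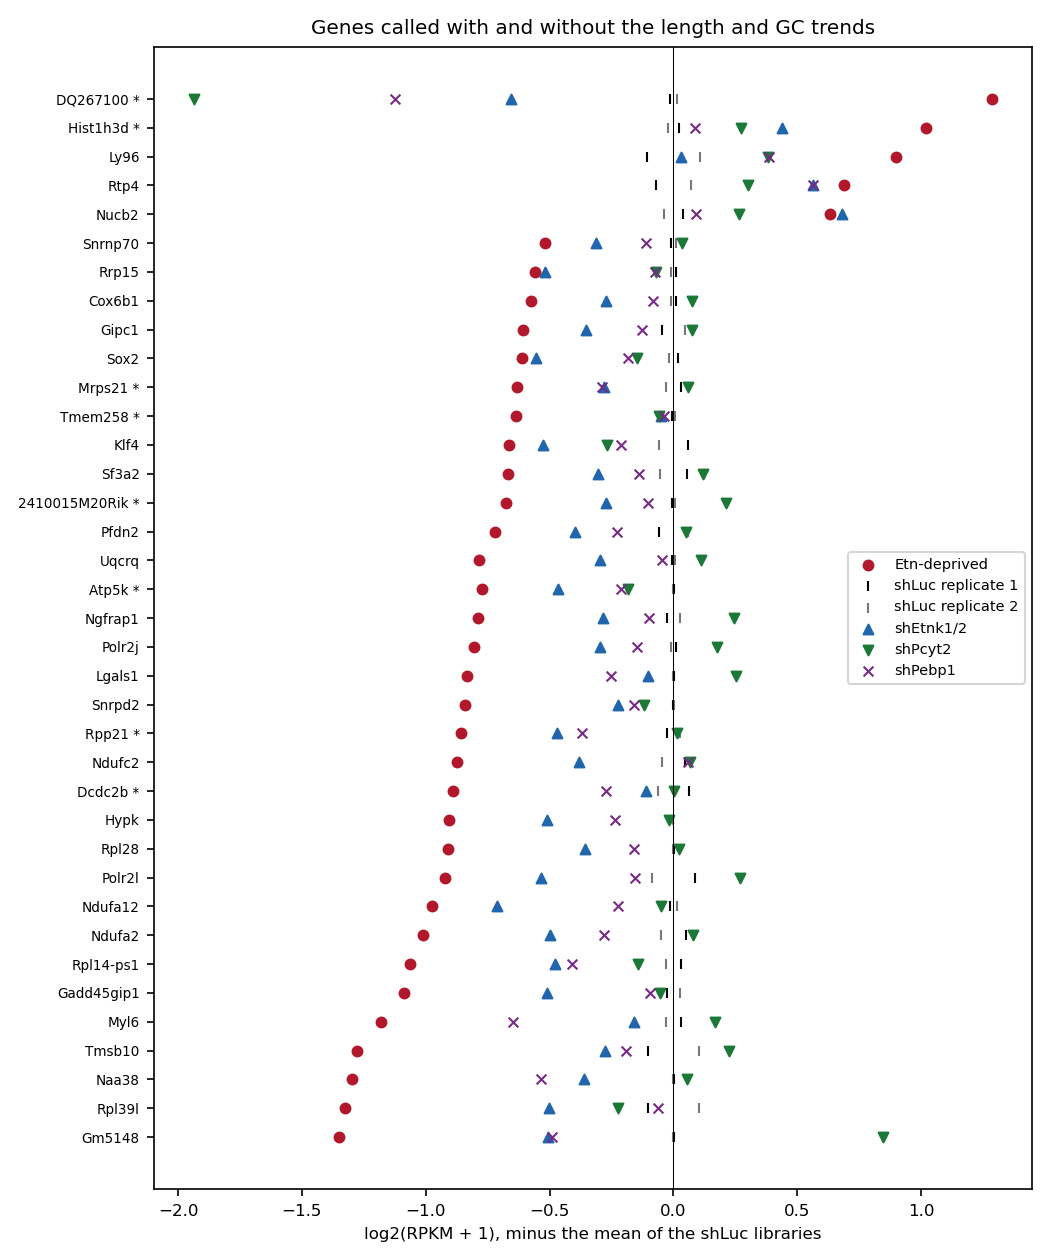
The 32 lower and 5 higher genes that were called in all 3 fits and passed the size rule, by library, as log2(RPKM + 1) minus the mean of the shLuc libraries. Asterisks mark the 8 not called in all 3 fits with the spread trended on reads. Etn-deprived is the lowest library for every lower gene shown.

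Interferon-stimulated genes were called higher in 7 of 43 tested and lower in none, with a median of 0.16. The median was 0.11 against shLuc replicate 1 and 0.20 against the library labelled shLuc replicate 2. Over all genes tested, 1.49% were called higher. Oasl2, an oligoadenylate synthetase-like protein, stood at 4.02 and 3.11 RPKM in shLuc and 6.19 in Etn-deprived (0.66 ± 0.16, limma adjusted p = 0.00969), the highest of the 6 libraries. Cxcl10 was at 0.316 and 0.37 RPKM in shLuc and 1.17 in Etn-deprived, from 7, 8 and 24 reads, and shEtnk1/2 was higher at 2.02. It was not called with the spread trended on reads. Rtp4 was the 1 member called with the length trend and the GC trend removed.

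Genes of the fibroblast list were called higher in 8 of 32 and lower in none, with a median of 0.14, against 1.49% called higher over all genes tested. Of 23 tested collagen genes 1, Col12a1, was called higher and none lower, with a median of 0.05, and none was called with the length trend removed (median −0.02). Spp1, osteopontin, stood at 9.93 and 11.9 RPKM in shLuc and 17.8 in Etn-deprived (0.67 ± 0.11, limma adjusted p = 0.000575), and Postn, periostin, at 170 and 201 against 250. In both, shEtnk1/2 was higher than Etn-deprived, at 18.7 and 346. Of 10 tested small leucine-rich proteoglycans, which bind collagen fibrils, 5 were called higher and none lower. Among them Ogn stood at 24.9 and 28.2 RPKM in shLuc and 38.0 in Etn-deprived, and Aspn at 82.2 and 83.4 against 109. Ogn and Aspn have a GC content of 36.3% and 34.3%, and Omd, Lum and Bgn, also called, of 34.9%, 41.9% and 52.5%. With both trends removed, Ogn went from 0.50 to 0.30, Aspn from 0.39 to 0.16 and Omd from 0.82 to 0.61. Lum went from 0.21 to 0.09 and Bgn from 0.24 to 0.28. Of all genes with a GC content up to 40%, 6.61% were called higher, and their median was 0.171. No gene of the fibroblast or proteoglycan list was called with length and GC trends both removed.

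Genes of the transition between mesenchymal and epithelial states were not called. Of 11 tested epithelial genes and 9 tested mesenchymal transcription factors none passed the test. Over all genes tested, 1.49% were called higher and 5.65% lower, so lists this short would hold few calls at that share. Of the 11 epithelial genes 9 were lower than in shLuc (median −0.02), and of the 9 mesenchymal factors 7 were higher (median 0.13). Cdh1, E-cadherin, stood at 10.9 and 9.35 RPKM in shLuc and 10 in Etn-deprived, inside the span of the controls. Epcam stood at 1.11 and 1.92 RPKM in shLuc and 1.02 in Etn-deprived. Snai1 stood at 7.91 and 10.6 against 11.1, Zeb1 at 15.7 and 14.4 against 17.8, and Zeb2 at 14.8 and 15.4 against 18.0. With the spread trended on reads, 2 of the 9 mesenchymal transcription factors were called higher, Zeb2 (0.24 ± 0.10 in the first fit) and Prrx1, which stood at 56.0 and 53.7 RPKM in shLuc and 65.3 in Etn-deprived. Thy1, a fibroblast surface protein, stood at 61.9 and 55.7 RPKM in shLuc and 52.0 in Etn-deprived.

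Wnt target and feedback genes moved both ways, 5 of 20 called lower and 1 higher, against 5.65% and 1.49% of all genes tested. Nkd1, a feedback inhibitor, stood at 29.8 and 34.0 RPKM in shLuc and 22.6 in Etn-deprived (−0.48 ± 0.09, limma adjusted p = 0.00232). Lef1 and Tcf7, the transcription factors of the pathway, stood at 9.27 and 11.4 against 7.31 RPKM and at 38.7 and 42.1 against 31.4. In both shEtnk1/2 was lower than Etn-deprived, at 7.11 and 27.7. Notum, an enzyme that inactivates Wnt proteins, stood at 46.9 and 48.7 against 35.4, and Axin2 at 54.7 and 53.1 against 44.3. Sfrp4, a secreted Wnt-binding protein, stood at 24.4 and 19.4 against 33.3 (0.59 ± 0.12, limma adjusted p = 0.0163). With the spread trended on RPKM, none of the 6 was called once the length trend was removed. With the spread trended on reads all 6 were, and Nkd1, Lef1 and Sfrp4 also with both trends removed.

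Of 4 tested enzymes of the CDP-ethanolamine pathway itself, 1 was called lower and none higher. Over all genes tested 5.65% were called lower and 1.49% higher, and 1 call in a list of 4 says little about a pathway. Pcyt2 stood at 42.0 and 40 RPKM in shLuc and 33.5 in Etn-deprived, with shPcyt2 lower at 29.9 (−0.29 ± 0.08, limma adjusted p = 0.0368), and was not called once the length trend was removed. Etnk1 stood at 21.0 and 21.4 RPKM in shLuc and 23.7 in Etn-deprived, and Cept1, which can complete the pathway, at 10.7 and 11.7 against 12.0. Ept1, the ethanolamine phosphotransferase, stood at 10.3 and 10.8 against 11.4. None of these 3 was called. Etnk2 lay under the filter, at 0.457 and 1.00 RPKM in shLuc and 0.519 in Etn-deprived. Of 4 tested genes of the parallel CDP-choline pathway, Chpt1, which makes phosphatidylcholine, was called higher (5.80 and 6.05 against 8.18 RPKM, limma adjusted p = 0.0496). It was not called with the length trend removed, or with either shLuc library left out.

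Compared with the knockdowns of the pathway, Etn-deprived was called higher in 158 genes (1.34%) and lower in 176 (1.49%) against shEtnk1/2, and higher in 221 (1.87%) and lower in 598 (5.06%) against shPcyt2. With the length trend removed these became 15 and 12, and 7 and 42. Each side held 1 library, and the spread again came from shLuc. Of the 35 genes that fell in all 3 fits, 23 were called lower against shEtnk1/2 and 35 against shPcyt2, and the genes had been chosen with Etn-deprived itself. Tmsb10 differed from shEtnk1/2 by −1 (limma adjusted p = 3.33e-05), Myl6 by −1.02 (limma adjusted p = 1.28e-09) and Lgals1 by −0.73 (limma adjusted p = 3.46e-07).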

How the data were processed

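RPKM values for 6 libraries, 1 per gene and library, were deposited by the authors. The submitters' processing notes name Bowtie 0.12.2 and mm10. No gene model, counting program or strand setting is stated in the labels or the file, and Poly-A RNA was read as paired ends per the labels' protocols. Each gene's values stood in whole-number ratios (within 1e-05 reads plus a relative 5e-09), which gave the reads and the transcript length. GC content came from GENCODE vM21 for 11745 genes. Values were analysed as log2(RPKM + 1) in R 4.3.3 with limma 3.58.1 (trended, robust empirical Bayes, 5 group means, 1 residual degree of freedom from the shLuc pair, two-sided). Trends were removed with mgcv 1.9.3. The size rule needs 0.5 log2 units beyond both shLuc libraries. Intervals are 95% Poisson intervals.

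Tested on simulated data, the limma fit made several times as many false calls as its threshold allows. Its adjusted p-values are therefore likely too small, and some of its calls are likely false. The simulated reads had a common spread for all genes and no length or GC trend, so the share of false calls in the real data is not known. A fit with the spread trended on reads came nearer to the threshold and was added for that reason, though on the real data it called more genes. It was for a time used in place of the first fit. Both fits' calls on the real data had been seen by then, so the first fit, chosen earlier, was restored, and both are printed.

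The genes, the 48 lists and the rules were chosen with earlier results of these data known. Genes named are the pathway genes and Pebp1, those called in all 3 fits (up to 20 each way by size), up to 6 called members per list, otherwise its 2 largest differences, a panel of reprogramming, epithelial and mesenchymal genes, and copies of named genes. Naa38 was taken out of the Sm and LSm list after its values had been seen, because its position is that of another gene than the LSm gene once given that name. Short RNA rows were left out (125 genes). Names turned into dates stood on 26 lines. Some called genes are not reported here.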

Additional observations from a re-analysis of the deposited data

How the results depend on the processing

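No paired analysis was possible because only shLuc carries replicate numbers. The main counts were 176 higher and 668 lower. Higher and lower calls were 0 and 0 without a filter on low values (2892 genes at an unadjusted p under 0.05), 70 and 384 with short RNA rows kept, 94 and 358 after scaling to a common median ratio, 107 and 270 after quantile normalization, 295 and 410 by limma-voom, 15 and 63 with the length trend removed and 8 and 40 with length and GC trends removed. Leaving out 1 shLuc library gave 11 to 15 higher and 23 to 33 lower. With the spread trended on reads, added after seeing the data, 430 were higher. The size rule gave 29 higher and 137 lower, against 88 and 243 with a pseudocount of 0.1, 3 and 47 with 5, 53 higher without a filter, 8 higher at a mean of at least 5 RPKM, 47 higher with short RNA rows, 67 lower with the length trend removed, 53 lower with both removed, and 116 to 118 higher and 260 to 283 lower against 1 shLuc library. No called gene named by the rule changed sign under any alternative. Uncalled ones did. Between leaving out replicate 1 and leaving out replicate 2, Pebp1 went from 1.06 to −0.25, Tek from 0.12 to −0.07, Krt14 from 0.18 to −0.08, Acta1 from −0.21 to 0.91, Cdh1 from 0.09 to −0.11 and Tmsb4x from −0.01 to 0.06. With the length trend removed, Tek (−0.02) and Fn1 (−0.01). With both removed, Ept1 (−0.03), Cept1 (−0.08), Tek (−0.05), Eng (0.08) and Tubb3 (0.03). After median scaling, Eng (0.00) and Cdh1 (0.01), and after quantile normalization, Eng (0.01) and Cdh1 (0.01). The cause of these shifts was not tested.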
